A study of Drosophila melanogaster with 3 samples.

Results

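Distal intronic peaks are binding regions of CG1602-GFP whose summit lay more than 2000 and at most 10000 bp from the nearest transcription start site (TSS), inside an annotated gene and in none of its exons. The rule, which used position only, took 730 of the 4599 peaks that the authors retained after testing their reproducibility by IDR (15.9%). The samples were 3 biological replicates of chromatin immunoprecipitation with sequencing (ChIP-seq) on whole Drosophila melanogaster embryos of both sexes, pooled over 0 to 24 h of age. The embryos came from a stable transgenic line in which GFP was joined to the C terminus of CG1602, chromatin was sheared by sonication, and the precipitation used an antibody against GFP. All replicates belonged to 1 group, were set against 1 shared control and had no second genotype, treatment or time. The sources used here do not name the promoter of the fusion gene, and whole embryos mix all cell types, so a peak may stem from few or many of them.

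CG1602 belongs to the zinc finger proteins, a family whose fingers can read DNA. In flies, long introns, and above all those near the 5′ end of a gene, hold many of the enhancers that drive genes of development, beside insulators, unannotated promoters and binding sites without known function. A ChIP peak shows where a protein or its complex was enriched on chromatin, not whether a gene responds.

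The sequences around the strongest of these summits introduce features found among the members. Most members (81.0%) had a lower GC content at the summit than 1000 bp away. At 37 of 730 (5.07%), copies of a short sequence faced the summit from both sides. Shown are 5 of the 7 strongest members, with 100 bp on each side of the summit, all as the forward strand of the dm6 reference (RefSeq), 5′ to 3′. Capitals mark the 7-base core TNCACTG (N for any base) and its extension CACTGAGA, or their reverse complements. The members lay in Tlk (chrX:3742122-3742322), which encodes a kinase of chromatin assembly, in Gug (chr3L:8458223-8458423), which encodes the Atrophin corepressor, in trx (chr3R:14283763-14283963), the trithorax histone methyltransferase gene, in CG32486 (chr3L:3060688-3060888), and in aos (chr3L:16480452-16480652), whose secreted product Argos inhibits the epidermal growth factor receptor; the last also lay inside CG33158.
Tlk: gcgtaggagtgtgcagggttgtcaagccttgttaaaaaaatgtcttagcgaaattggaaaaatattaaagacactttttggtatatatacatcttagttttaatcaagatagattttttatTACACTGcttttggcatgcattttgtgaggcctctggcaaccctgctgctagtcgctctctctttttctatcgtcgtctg
Gug: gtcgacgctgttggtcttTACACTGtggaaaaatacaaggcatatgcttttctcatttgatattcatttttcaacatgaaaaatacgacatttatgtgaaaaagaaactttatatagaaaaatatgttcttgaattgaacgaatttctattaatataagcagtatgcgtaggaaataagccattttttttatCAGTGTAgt
trx: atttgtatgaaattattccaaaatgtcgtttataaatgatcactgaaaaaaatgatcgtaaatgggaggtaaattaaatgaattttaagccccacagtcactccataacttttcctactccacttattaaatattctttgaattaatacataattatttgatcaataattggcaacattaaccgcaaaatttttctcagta
CG32486: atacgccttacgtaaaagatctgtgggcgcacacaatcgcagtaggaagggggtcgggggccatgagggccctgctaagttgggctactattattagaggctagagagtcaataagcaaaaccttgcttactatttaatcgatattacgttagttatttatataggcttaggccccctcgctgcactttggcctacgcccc
aos: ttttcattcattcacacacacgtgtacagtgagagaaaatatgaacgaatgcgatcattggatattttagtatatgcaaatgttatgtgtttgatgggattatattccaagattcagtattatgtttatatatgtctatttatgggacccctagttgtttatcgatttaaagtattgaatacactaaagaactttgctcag
Their GC contents were 37.8% at Tlk, 28.9% at Gug, 26.9% at trx, 48.3% at CG32486 and 30.8% at aos. The value at CG32486 lay above the 40.2% mean of the windows 1000 bp from the summits of all members. Gug held a forward copy of the core on the left of its summit and a reverse copy on the right, 174 bp apart. Tlk held 1 forward copy on the right of its summit, which reads away from it, and the windows of trx, CG32486 and aos held none.

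A further 5 members with such a pair are shown with 120 bp on each side, because they carry both copies of the core, one on each side of the summit. They are among the strongest of this kind, and this set was chosen after the words had been ranked. They lay in CG34417 (chrX:6549775-6550015), in cno (chr3R:5212334-5212574), whose product Canoe links adherens junctions to actin, in aop (chr2L:2163561-2163801), which encodes the ETS repressor Yan, in Rbfox1 (chr3L:10554623-10554863), which encodes an RNA-binding splicing factor, and in hiw (chrX:15022289-15022529), the ubiquitin ligase gene highwire.
CG34417: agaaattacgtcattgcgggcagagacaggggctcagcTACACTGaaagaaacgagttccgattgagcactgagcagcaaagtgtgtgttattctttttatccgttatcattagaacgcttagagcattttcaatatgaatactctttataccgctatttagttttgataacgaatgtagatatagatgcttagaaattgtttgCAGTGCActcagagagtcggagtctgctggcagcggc
cno: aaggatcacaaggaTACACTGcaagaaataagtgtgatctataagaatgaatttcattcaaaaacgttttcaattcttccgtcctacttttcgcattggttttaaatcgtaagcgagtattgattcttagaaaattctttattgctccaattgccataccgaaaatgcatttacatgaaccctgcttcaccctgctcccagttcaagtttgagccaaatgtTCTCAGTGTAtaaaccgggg
aop: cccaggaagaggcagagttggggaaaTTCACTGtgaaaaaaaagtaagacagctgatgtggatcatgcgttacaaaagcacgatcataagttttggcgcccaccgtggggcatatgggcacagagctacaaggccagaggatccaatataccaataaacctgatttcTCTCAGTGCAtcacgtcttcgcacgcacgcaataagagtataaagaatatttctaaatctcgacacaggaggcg
Rbfox1: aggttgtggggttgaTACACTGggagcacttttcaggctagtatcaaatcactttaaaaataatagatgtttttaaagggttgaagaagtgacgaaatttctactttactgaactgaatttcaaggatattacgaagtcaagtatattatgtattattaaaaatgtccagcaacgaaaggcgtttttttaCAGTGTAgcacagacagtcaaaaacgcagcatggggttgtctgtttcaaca
hiw: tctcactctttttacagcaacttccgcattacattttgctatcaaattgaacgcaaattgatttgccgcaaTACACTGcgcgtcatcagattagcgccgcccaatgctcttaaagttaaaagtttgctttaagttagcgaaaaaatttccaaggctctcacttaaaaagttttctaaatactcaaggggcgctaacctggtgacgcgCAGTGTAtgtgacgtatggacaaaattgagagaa
The copies stood 166 bp apart at CG34417, 210 bp at cno, 144 bp at aop, 175 bp at Rbfox1 and 136 bp at hiw. At cno and aop the right-hand copy was also part of the longer word.

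The strongest distal intronic peaks were found in all 3 replicates with similar ranks. Signal is the authors' own value per region, set against the control but with no stated scale, so sizes were compared only within a list and replicates by rank, with rank 1 the strongest region of that replicate's own list. The Tlk peak (signal 1292) held rank 39 of 17580 regions in replicate 1, rank 45 of 27164 in replicate 2 and rank 35 of 18386 in replicate 3. The peak in CG12769 (1142) ranked 60, 40 and 59 in replicates 1, 2 and 3. The peak in Gug (1043) ranked 81, 66 and 64. These were steady positions, all within the first 100 regions. High ranks of the strongest members are partly built in, because their signal came from the pooled reads of the same replicates.

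The next 7 members by signal all ranked within the first 200 regions of every replicate. A peak in an intron of Hr3 (1026), a nuclear receptor of the ecdysone cascade, lay also inside CG12912 and CG46321 and ranked 72, 63 and 91 in replicates 1, 2 and 3. The peak in the first intron of trx (1021) ranked 82, 61 and 82. The peak in CG32486 (889.0) ranked 84, 138 and 116, and that in aos (828.6) ranked 102, 125 and 143. In tara (802.1), whose product Taranis is a nuclear cell cycle regulator, the ranks were 137, 144 and 141, all within a few places. The peak in Raf (801.1), the kinase gene downstream of Ras, ranked 120, 194 and 135. The peak in Hr4 (772.8), another nuclear receptor gene, ranked 159, 99 and 185.

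Agreement was looser at a few of the 20 strongest. The peak in simj (769.5), which encodes a subunit of the NuRD chromatin remodelling complex, ranked 125 in replicate 1, 340 in replicate 2 and 505 in replicate 3. In replicates 2 and 3 the overlapping region had its summit 108 and 110 bp away from the summit of the member, against 10 bp in replicate 1. The peak in ken (548.9), a gene of a BTB zinc finger repressor, ranked 303, 555 and 278, with a summit 87 bp away in replicate 2. The others of the 20 lay in JIL-1, a histone H3 kinase gene, CG9328, Lrch, eff, which encodes a ubiquitin-conjugating enzyme, grh, the epidermal transcription factor gene, babos, upSET and ImpL2, whose secreted product binds insulin-like peptides. Their ranks spanned 148 (JIL-1, replicate 1) to 492 (eff, replicate 1).

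**Figure D1:**
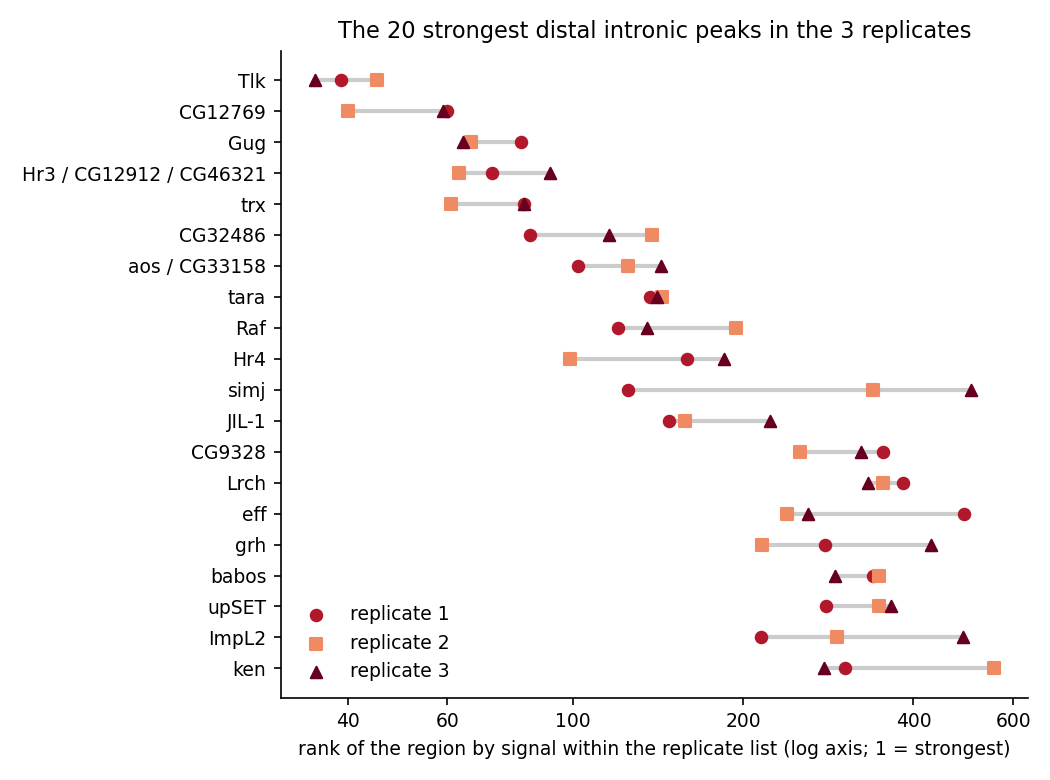
Rank of the 20 strongest distal intronic peaks within the list of each replicate, on a log axis on which 1 is the strongest region; rows name the host gene, and grey lines join the 3 replicates. The points of Tlk lie between rank 35 and rank 45, whereas those of simj spread over ranks 125 to 505.

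As a class the distal intronic peaks were of moderate strength. Their signals ran from 108.2 to 1292, with a median of 170.5 and quartiles of 133.7 and 244.9. Of the 730, 5 were among the 100 strongest peaks of the IDR list, namely those in Tlk, CG12769, Gug, Hr3 and trx. When the IDR list was split by signal into 4 parts, the strongest (1150 peaks) held 120 members (16.4%) and the weakest held 28.1% of them. For each replicate, every IDR peak was given the signal of the strongest region that it overlapped and a percentile among all 4599 peaks. The median percentile of the distal intronic peaks was 45.4 in replicate 1, 44.6 in replicate 2 and 41.7 in replicate 3, against 56.0, 55.3 and 58.0 for promoter peaks, whose summit lay within 500 bp of a TSS. The mean difference was -12.6 ± 3.23 percentile points (SD, n = 3), lower in 3 of 3 replicates (exact sign-flip permutation test, two-sided, p = 0.25, the smallest p that 3 replicates allow). Against distal intergenic peaks, with a summit at the same distances outside genes, they ranked higher. The medians of those peaks were 40, 37.7 and 36.5 in replicates 1, 2 and 3, a difference of +5.81 ± 0.941 points (SD, n = 3) in 3 of 3 replicates (the same exact test, p = 0.25).

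Most distal intronic peaks recurred in each replicate. For this the list of every replicate was cut to its 4599 strongest regions. Of the 730 members, 509 overlapped such a region in all 3 replicates (69.7%, 95% Clopper-Pearson interval 66.2 to 73.0%), 167 in 2, 54 in 1 and 0 in none. The interval covers counting error over peaks only, since read depth is unknown. Some overlap is built in, because the IDR procedure drew on the same replicates. Replicate 1 held 88.9% of the members, replicate 2 83% and replicate 3 90.4%, against 89.8%, 86.7% and 94.4% of promoter peaks. The mean difference was -2.84 ± 1.72 percentage points (SD, n = 3; exact sign-flip permutation test, two-sided, p = 0.25), with the share lower in 3 of 3 replicates. Recurrence rose with signal in both classes. Much of this is built in, because the 4 parts were cut by the signal of the pooled reads, which include every replicate. In the strongest of the 4 parts all 120 members and all 704 promoter peaks were held by all 3 replicates. In part 3 of 4 the shares were 74.3% of members and 75.6% of promoter peaks, and in the weakest 19.5% and 22.8%. By replicate, 70.7%, 54.1% and 68.8% of the weakest members were held in replicates 1, 2 and 3, against 60.4%, 59.6% and 77.0% of the weakest promoter peaks, so the direction of the difference varied.

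Summits of replicate regions lay near those of the members. Some closeness is built in, because the members come from the pooled reads, which include every replicate. A median of 17 bp separated the member's summit from that of the strongest overlapping region in replicate 1. This median was 15 bp in replicate 2 and 12 bp in replicate 3. Across the members found in both lists, the signals had a Spearman correlation of 0.662 between replicates 1 and 2, 0.783 between 1 and 3, and 0.750 between 2 and 3, as a description over peaks that share 1 control. All but 2 members were found in the whole list of every replicate. The exceptions, 1 peak in Eip75B (130.9) and 1 in jing (108.3), overlapped no region of replicate 1. Some members stood side by side: the intervals of 34 overlapped that of another member, which leaves 713 separate intervals, and 36 shared their replicate region with another IDR peak and hence its rank there.

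Beside the limits of the rule stood the following peaks. Just inside 2000 bp stood peaks in Shrm (2001 bp from a TSS, signal 234.7) and CG3764 (2003 bp, 249.9), and just outside it peaks in CenG1A (2000 bp, 115.8) and lncRNA:CR44320 (1990 bp, 232.0). Just inside 10000 bp stood peaks in ush (9989 bp, rank 2289 of the IDR list by signal) and Hr4 (9986 bp, rank 432), and just outside it peaks in Efa6 (10012 bp, rank 2009) and lncRNA:CR32773 (10052 bp, rank 4230).

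Introns 2 to 10 kb from a TSS were bound more densely than intergenic sequence at the same distances. Qualifying intron, the sequence that meets the rule, came to 24.1 Mb and held 30.3 members per Mb. Qualifying intergenic sequence came to 16.4 Mb with 334 peaks, or 20.4 per Mb, and promoter windows held 127 peaks per Mb. The same rule applied to the 4599 strongest regions of each replicate gave 30.6, 29.9 and 29.2 intronic regions per Mb in replicates 1, 2 and 3, against 20.6, 19.1 and 19.9 intergenic ones. The 3 intronic values did not overlap the 3 intergenic ones. Peaks in introns beyond 10 kb were sparser still (183 peaks in 18.3 Mb), and distal exons, with 24 peaks in 11.2 Mb, held 2.15 per Mb.

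Within the distance limits the density declined with distance from the TSS. It was 35.1 members per Mb between 2000 and 3000 bp and 34.3 between 3000 and 4000 bp, then 29.6 up to 6000 bp, 28.8 up to 8000 bp and 20.9 up to 10000 bp. Intergenic peaks numbered 23.3, 23.7, 22.8, 13.4 and 16 per Mb in the same bins, below the intronic value in each of the 5. The median distance of the members was 4287 bp. By arm, X was highest with 36.3 members per Mb, and 3L, 3R, 2R and 2L held 30.7, 29.4, 28.7 and 28.2. Chromosome 4 held 0 members in 0.335 Mb and Y 0 in 0.0602 Mb.

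First introns held more members than their length. Of the 730, 472 (64.7%) lay in the first intron of at least one transcript, which made up 47.5% of the qualifying sequence, so that first introns held 41.2 members per Mb and the rest 20.4. With the transcript of the longest summed exons as the only one per gene, the share was 40.7% of members in 31.8% of the sequence, or 38.8 against 26.3 per Mb. Introns that precede the start codon of a transcript held 34.8 members per Mb and the others 27.1. The introns were long, with a median of 12104 bp for the shortest annotated intron around each summit. Sequence that the reference marks as repeat held 22.9% of the summits and made up 21.2% of the qualifying bases.

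**Figure D2:**
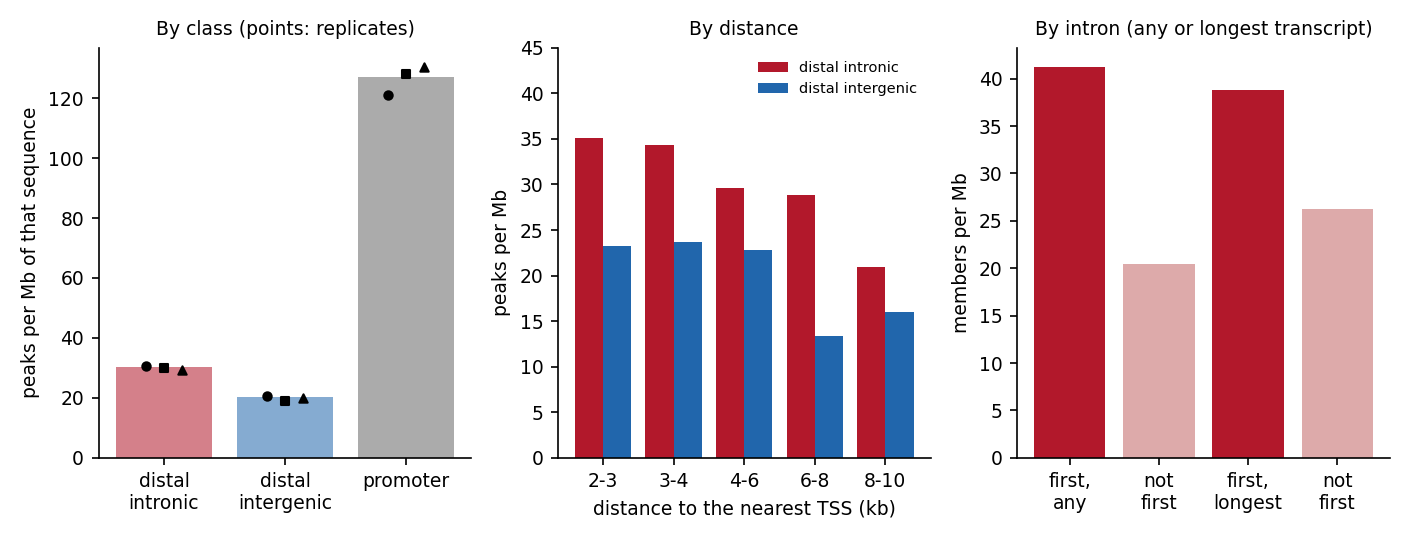
Left, peaks per Mb of distal intronic, distal intergenic and promoter sequence, with bars for the IDR list and points for equally long lists of replicates 1 (circle), 2 (square) and 3 (triangle). Middle, peaks per Mb by distance to the nearest TSS, intronic beside intergenic, where the intronic bar is the higher in each of 5 bins; right, members per Mb in first and other introns, 41.2 and 20.4 over any transcript and 38.8 and 26.3 for the transcript with the longest exons.

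The members fell into 471 genes. Among the 2849 genes with at least 500 bp of qualifying intron, 468 (16.4%) held a member. Of the 471, 316 held 1 member, 118 held 2 or 3 and 37 held 4 or more. For 199 members (27.3%), with no such share computed over all qualifying intron, the closest start belonged to a gene other than the host. Examples are the CG32486 peak, nearest to CG16753 at 5709 bp, the simj peak, nearest to CG11811 at 8018 bp, and the strongest peak in Dad, nearest to Ns1 at 7544 bp. For 35 members several genes overlapped at the summit, and 14 lay in non-coding genes only.

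Genes with many members included nuclear regulators and signalling genes. Such counts are not scaled to the length of qualifying intron. This length was 118 kb at lncRNA:CR44357, 135 kb at kirre, 113 kb at Ten-a and 89.8 kb at sick. Among the 37 genes the lowest density, 0.0297 members per kb at kirre, was near the 30.3 per Mb over all qualifying intron. The overlapping genes lncRNA:CR44357 and CG1677 held 9 and 7, the 7 being among the 9, and CG43658 held 9 (8 after merging overlaps, signals 108.2 to 187.6). The gene ush, whose product U-shaped is a cofactor of GATA factors in blood and heart, held 8 over 40.2 kb of qualifying intron (109.3 to 312.3), 5 of them in all 3 replicates. Raf held 6 in 17.7 kb (120.4 to 801.1), and 5 of these ranked among the first 1704 regions of every replicate. The highest, at chrX:2297728, ranked 120, 194 and 135 as given above, and the next, at chrX:2300708 (455.6), ranked 318, 604 and 686. The members in Raf thus formed a series, with summits at chrX:2299187, chrX:2302293 and chrX:2304107 besides. The gene tara held 6 in 23.8 kb (173.2 to 802.1), of which 2 overlapped, and Eip75B, an ecdysone-induced nuclear receptor gene, held 6 in 66.5 kb (129.7 to 447.4).

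Among genes with 5 members were Tlk, the corepressor gene Smr, mam, which encodes the Notch coactivator Mastermind, PRAS40, which encodes an inhibitor of TOR complex 1, shn, whose zinc finger product Schnurri acts in BMP signalling, RapGAP1, sick, apt, the Wnt receptor gene fz2 and the teneurin gene Ten-a. The strongest member of Smr had signal 547.8 and that of mam 436.7, whereas those of fz2 and Ten-a reached 170.4 and 148.0. Of the 5 members in fz2, 1 was held by all 3 replicates, against 5 of 5 in apt. PRAS40 had the 5 in 9.80 kb (135.6 to 408.6), which merged into 3 separate intervals. Genes with 4 included the forkhead gene CHES-1-like, with the highest density of the 37 (4 in 7.45 kb, 149.8 to 364.1), wts, the Hippo pathway kinase gene (4 in 9.20 kb, 120.0 to 220.6), the ETS factor gene pnt (157.5 to 309.3), Pvf3, a ligand gene (125.8 to 352.9), E2f1 (114.9 to 274.8), fz (116.4 to 255.8) and lncRNA:iab8 of the bithorax complex (135.8 to 170.4). The other 12 were Hr4, kirre, Ptp61F, mew, shep, tou, Pdp1, Mnt, msn, tna, Grip and spri. Their strongest members ranged from 153.1 (tna) to 772.8 (Hr4).

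Pathway genes differed widely in how densely their introns were bound. The 14 lists, chosen with earlier results of these data known, are described by counts and densities, beside 30.3 members per Mb over all qualifying intron. Of all 2849 genes with at least 500 bp of qualifying intron, 16.4% held a member. This share rose with intron length: 2.40% at 500 to 3000 bp of it, 16.9% at 3000 to 10000 bp and 33.7% above. Counts of genes that held a member, given below, are not scaled to this length, whereas the densities are. In the bone morphogenetic protein (BMP) and activin pathway, 6 of 11 genes with qualifying intron held 15 members, 116 per Mb, and the replicate lists gave 101, 101 and 109. Its members stood in Dad, the inhibitory Smad gene (strongest signal 442.1), shn (401.8), sog, a secreted antagonist (331.2), the ligand gene dpp (320.1), cv-2 and the receptor gene tkv. With overlapping members merged the list held 13, or 101 per Mb. In the Hippo and planar polarity list 6 of 10 genes held 12 members (102 per Mb; replicates 102, 76.4 and 119), in the upstream regulators ex (357.4) and kibra (228.9), the kinase gene wts (220.6), pk (165.4), dachs and stan. All 3 replicate values of both lists lay above those over all qualifying intron.

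The receptor tyrosine kinase pathway held members from its ligands to its nuclear factors. Of its 23 genes, 9 held 23 members (87.7 per Mb; replicates 91.5, 83.8 and 91.5). Ligand and ligand-processing genes were S, which encodes the trafficking protein Star (360.4), Pvf3 (352.9), bnl, a fibroblast growth factor gene (168.4), and Pvf2 (114.8); the inhibitor was aos (828.6), the receptor Egfr (109.4), the kinase Raf (801.1), and the nuclear ETS factors aop (371.1) and pnt (309.3). In the Wnt pathway 6 of 15 genes held 17 members (87.9 per Mb; replicates 77.6, 82.8 and 62.1). These were the feedback antagonist nkd (368.6), the co-receptor arr (313.3), the receptors fz (255.8) and fz2 (170.4), and the ligands Wnt4 (171.1) and Wnt6 (136.3). The insulin and TOR list held 4 members in 2 of 6 genes, InR and Sik3 (88.4 per Mb; replicates 66.3, 66.3 and 88.4), a density that rests on 0.0452 Mb. Of the Hedgehog list 4 of 7 genes held 6 members (51.9 per Mb; replicates 51.9, 60.5 and 51.9), in the glypican genes dlp (410.8) and dally (192.6), the ligand hh (141.3) and the receptor ptc (121.6). All 5 members of the Notch list (30.6 per Mb; replicates 36.7, 48.9 and 30.6) lay in mam, and 1 of 11 genes held any.

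Lists of nuclear regulators ranged from 33.7 to 82.4 members per Mb. Of the nuclear receptor and ecdysone response genes 7 of 18 held 20 members (67.0 per Mb; replicates 67.0, 70.4 and 60.3), led by Hr3 (1026), Hr4 (772.8), Eip75B (447.4) and Eip74EF (273.3). Transcription factors listed under mesoderm, blood, gut and glia held 21 in 9 of 20 genes (66.3 per Mb, replicates 75.8, 56.8 and 63.1). They were led by grh (566.0), ush (312.3), ct (271.0) and luna (236.4). With the epidermal factor gene grh among them, the list is not confined to the tissues in its name, and its density describes the list only. Chromatin and insulator protein genes held 4 in 3 of 10 genes, trx (1021), Psc (363.9) and ph-p (219.7), which gives 82.4 per Mb over 0.0485 Mb (replicates 82.4, 124 and 82.4). Patterning transcription factors held 9 in 7 of 24 genes (33.7 per Mb; replicates 33.7, 37.4 and 33.7), among them the Hox genes Abd-B (371.6), Antp (336.3), Ubx (165.9) and lab (149.8).

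In the IDR list, ion channel genes lay below the density of all qualifying intron, axon guidance and neuronal adhesion genes lay close to it, and muscle genes offered little sequence. Axon guidance and neuronal adhesion genes had the most intronic sequence of any list, 0.901 Mb, and 24 members in 17 of 42 genes (26.6 per Mb; replicates 25.5, 27.7 and 24.4). Their strongest stood in Sema1a (322.1), the slit gene sli (274.2), Fas3 (271.0) and the netrin gene NetA (233.4). Of 17 voltage-gated ion channel genes 1 held a member, the peak in Ih (221.2), in 0.237 Mb (4.22 per Mb in the IDR list and in each replicate). The 9 muscle structural genes with qualifying intron held 0 in 0.0851 Mb, and the replicate lists held 1, 0 and 0 regions there. These counts rest on little sequence. Gene lists differ in expression and in chromatin state, whose part in these densities was not tested.

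**Figure D3:**
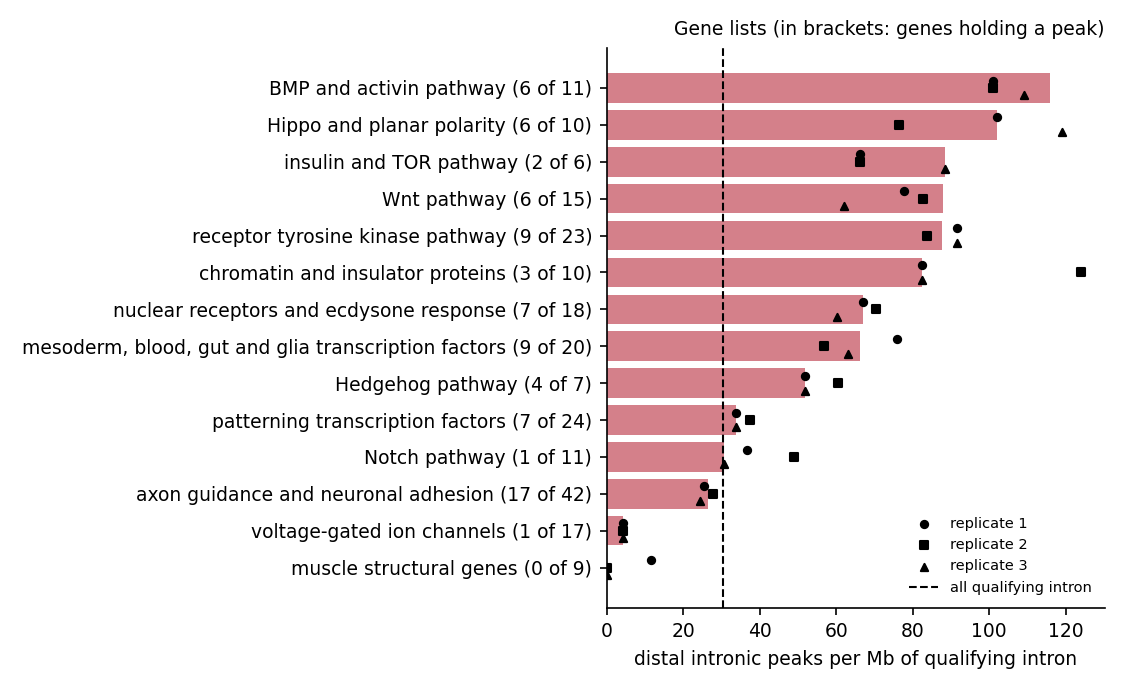
Distal intronic peaks per Mb of qualifying intron in 14 gene lists, with bars for the IDR list, points for equally long lists of the 3 replicates and a dashed line at 30.3 per Mb for all qualifying intron; brackets give the genes that hold a peak of those with qualifying intron. The BMP and activin list is highest at 116 per Mb, and ion channel and muscle structural genes are lowest at 4.22 and 0.

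Host genes more often had a peak at a promoter as well. An IDR summit lay within 500 bp of a TSS at 36.5% of the 468 genes that held a member, against 21.6% of the 2381 genes with qualifying intron and no member, and 24.0% of all 2849. Host genes have longer introns and more starts, with a median of 12586 bp of qualifying intron against 4021 bp. Among genes with 3000 to 10000 bp of it the shares were 34.5% of hosts and 17.8% of the others, and among those with more they were 37.5% and 17.7%. Among genes with 1 TSS they were 27.8% and 14.9%, and among those with several 42.0% and 29.3%. Over all genes with qualifying intron, host or not, the dense lists varied in this: 0 of the 11 BMP and activin genes, 2 of the 10 Hippo and planar polarity genes, 3 of the 6 insulin and TOR genes, 3 of the 15 Wnt genes, 2 of the 23 receptor tyrosine kinase genes and 6 of the 10 chromatin and insulator genes had a promoter peak.

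Sequence at the summits was poor in G and C. The GC content within 100 bp of a distal intronic summit averaged 33.8% ± 5.92 (SD over 730 peaks), against 40.2% ± 5.99 in windows 1000 bp to either side of it, and was lower at the summit for 591 members (81.0%). In the replicate lists the summit value was 34.0%, 34.7% and 34.0% and the flanking value 40.4%, 40% and 40.1%, so the groups did not overlap. The dip was narrow: the 21-bp bins fell to 30.9% at the summit, against 43.6% in bins at least 300 bp away, and the bins from 80 bp left to 60 bp right of it lay below the midpoint of 37.3%. Beside the dip the sequence was richer in G and C than 1000 bp away. The bins rose to 45.64% at 280 bp left and 45.79% at 280 bp right, above 40.2%. At distal intergenic peaks the same bins held 44.53% and 46.01%, against 41.2% at 1000 bp. Promoter peaks had the same GC content at the summit, 34.0% ± 6.56 (SD over 2278 peaks), but 44.9% in their flanks. All 201-base windows that tile the qualifying introns averaged 40.2% ± 7.78 (SD over windows).

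**Figure D4:**
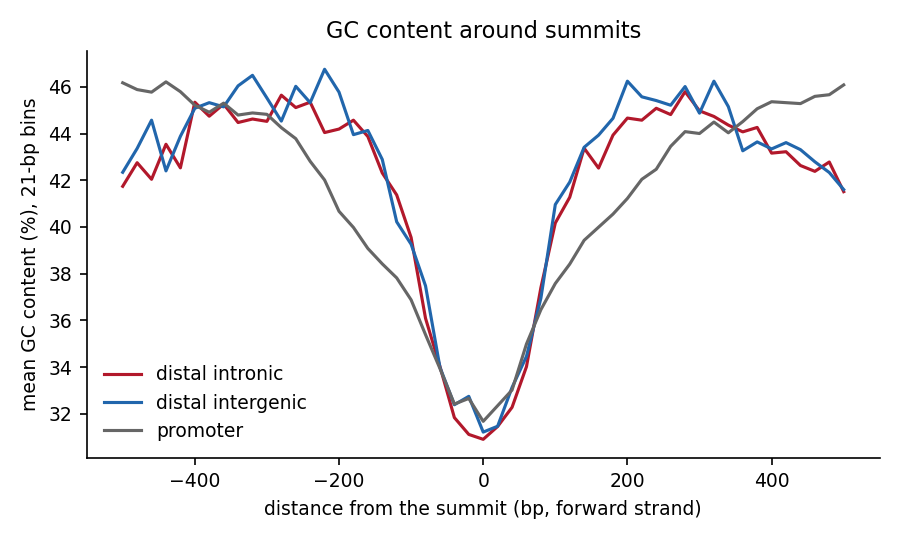
Mean GC content in 21-bp bins around the summits of distal intronic, distal intergenic and promoter peaks, against the distance from the summit in bp. All 3 curves dip near the summit, the intronic one to 30.9%, and the intronic and intergenic curves recover within about 200 bp while the promoter curve is wider.

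Few of the motifs of known fly factors were frequent at distal intronic summits. Both strands were searched, up to 100 bp from each summit, in windows 1000 bp to either side and in 111697 windows of 201 bases tiled over qualifying intron. The DNA replication-related element TATCGATA, bound by DREF at promoters, was found at 2 members (0.274%), in 0.616% of flanking windows and 0.404% of tiled windows, against 6.19% of promoter peaks. The 2 were peaks in Rip11 and lncRNA:CR44357. GAGAGAG, a form of the GAGA factor motif, was found at 2.05% of members, 3.70% of flanking windows and 2.66% of tiled windows, and CAGGTAG, the motif of the early embryonic factor Zelda, at 0.548%, 1.30% and 0.885%. The E-box CAGCTG (5.07% of members, 7.35% of tiled windows), the AP-1 motif TGACTCA (1.78% and 1.89%) and AGGACCT of Tramtrack (0.411% and 1.34%) were not above the tiled windows. The BEAF motif was at 0 members, which allows a share of up to 0.504% (Clopper-Pearson, counting error only).

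Several words rich in A and T were more frequent than in the flanks, beside the low GC content, whose part in this was not tested. TATAAA, the core of the TATA box, was at 38.4% of members, 24.9% of flanking windows and 23.7% of tiled windows, and at 40.7% of promoter peaks. AGATAA of GATA factors was at 17.9% of members, 12.5% and 11.6%, and the homeodomain core TAATTA at 18.5%, 15.1% and 14.8%. Runs of 8 A were at 20.3%, 15.8% and 14.0%. TGCATA, from the Su(Hw) site, was at 18.5%, 16.2% and 15%.

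One family of words stood out. Words of 8 bases in at least 10 member windows were ranked by their count at summits over that in the flanks. CACTGAGA came first, in 43 of 730 member windows and 4 of 1460 flanking windows, and TACACTGA was among the next, in 43 and 5. Of the first 20 words, 8 held CACTG or its reverse complement, among them ACACTGAG (24 and 3), CTCAGTGC (31 and 6) and TCAGTGCA (38 and 9). These counts come from the windows that were ranked. Other classes of peaks had no part in that ranking, but CACTGAGA was also among the motifs chosen with earlier results of these data known. CACTGAGA was at 5.89% of members, 0.274% of flanking windows and 0.705% of tiled windows, at 8.38% of distal intergenic peaks, 11.5% of intronic peaks beyond 10 kb and 1.89% of promoter peaks. Its letters in reversed order, AGAGTCAC, which keep the base composition, were at 1 member (0.137%). In the replicate lists CACTGAGA was at 6.63%, 5.40% and 5.39% of distal intronic regions and 0.541%, 0.346% and 0.426% of their flanks.

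The shared core TNCACTG, read off these words after they had been ranked, was more frequent. It was at 218 members (29.9%, 95% Clopper-Pearson interval 26.6 to 33.3%), 9.59% of flanking windows and 9.76% of tiled windows, and at 36.8% of distal intergenic and 14.4% of promoter peaks. The distal intronic regions of replicates 1, 2 and 3 held it at 28.1%, 27.0% and 30.6%. It was at 32.3% of the stronger 365 members and 27.4% of the weaker. Named members with the longer word included those in CG12769, babos, shn (401.8), aop (371.1), Psc (363.9), mew (339.4), pnt (309.3) and Fas3 (271.0).

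These words did not lie at the summit but beside it, and they faced it. Between 25 and 100 bp from the summit the members held 43 copies of CACTGAGA, and 42 of them (97.7%) read towards the summit, 18 forward copies on its left and 24 reverse copies on its right. Within 25 bp of the summit there were 3 copies. The core behaved alike with a looser bias: 172 of 239 copies between 25 and 100 bp faced inward (72.0%), 163 of 272 between 100 and 300 bp (59.9%) and 18 of 31 within 25 bp (58.1%). Distal intergenic peaks showed the same arrangement, with 26 of 28 copies of CACTGAGA facing inward between 25 and 100 bp (92.9%), and promoter peaks had 37 of 40 (92.5%). The weaker distal intronic regions of the pooled list, which are no members, had 47 of 58 (81.0%). The arrangement was thus also found in 3 sets of regions outside the ranking. Because CACTGAGA was among motifs chosen with earlier results of these data known, these sets may not be independent of its choice.

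**Figure D5:**
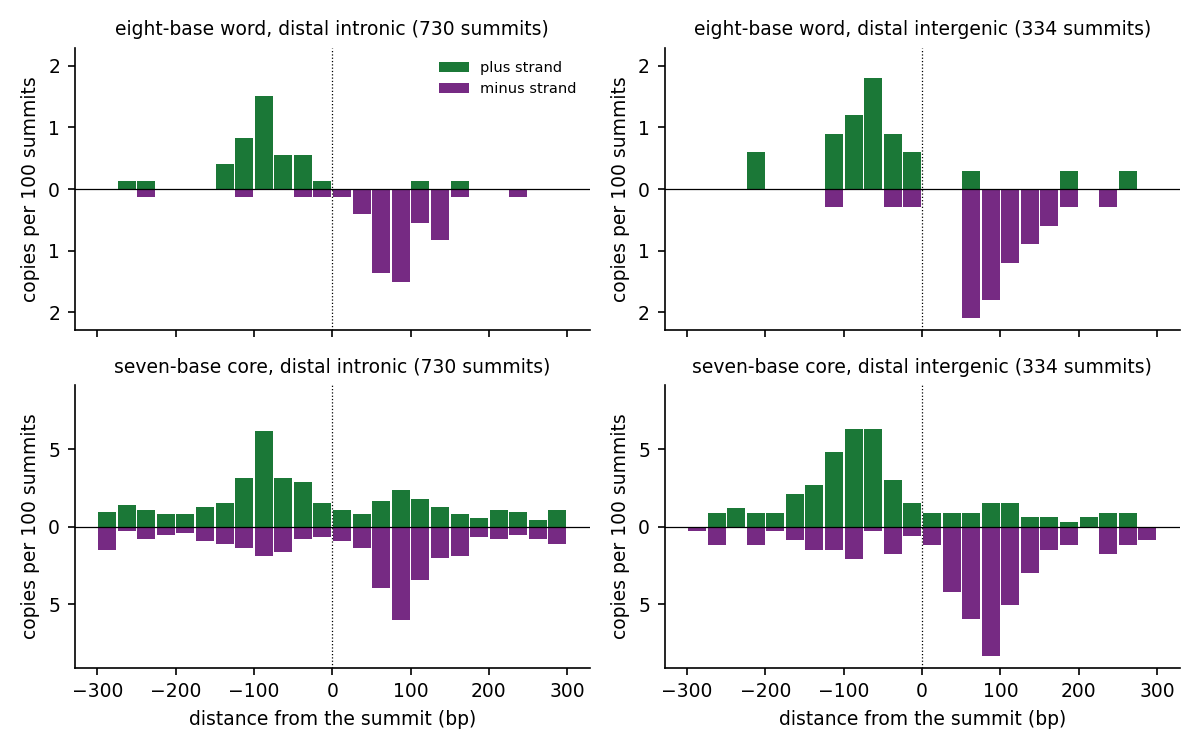
Copies per 100 summits of the eight-base word (top) and the seven-base core (bottom) in 25-bp bins, at distal intronic (left) and distal intergenic summits (right), with plus-strand copies drawn upward and minus-strand copies downward. Plus-strand copies of the eight-base word lie mostly left of the summit and minus-strand copies mostly right, and between 25 and 100 bp 42 of 43 copies of the eight-base word at distal intronic summits face inward.

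Where the core faced the summit, the bases after it were also uneven. Over 222 such copies at 25 to 125 bp, the free position of the core was G in 47.3% and A in 43.2%. Of the 7 bases after the core, most favoured A or G: the first was A in 43.2%, the second G in 50.5% and the third A in 66.2%, and the fifth, sixth and seventh were A in 77.0%, 79.7% and 79.3%. At the free position and just after the core this is partly given by the choice of core, which was read off words such as TACACTGA and CACTGAGA. No other copies of the core are set beside these shares.

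Facing pairs marked some of the members. The summits of 37 members (5.07%, 95% Clopper-Pearson interval 3.59 to 6.92%) lay between a forward and a following reverse core 50 to 250 bp apart, against 0.326% of tiled windows, 10.2% of distal intergenic peaks and 1.80% of promoter peaks. The spacing of the 37 pairs ran from 99 to 210 bp, with a median of 161 bp. The 8 bases inward of both cores matched as reverse complements at 4.22 ± 1.51 positions (SD, n = 37 pairs). The value was 2.72 ± 1.53 in 306 facing pairs of qualifying intron over 1000 bp from any pooled summit. Cores that faced a summit shared uneven bases after them, as given above, and the part of this in the matches was not tested. The reference marked 19.9% of the bases around the summits of the 37 as repeat, and 22.7% at the other members. Word and core were chosen at these same summits, so the 5.07% above and the shares that follow describe them and are no separate support. Of 490 facing pairs in qualifying intron, 39 had their middle within 100 bp of an IDR summit (7.96%). The same held for 12 of 293 pairs that faced outward (4.10%), 14 of 698 in the same direction (2.01%) and 0.604% of all qualifying bases. Most facing pairs were thus not at an IDR peak. Of 865 single copies of CACTGAGA 47 were near one (5.43%), of 337 copies of the reversed word 1, and of 512 copies of TATCGATA 3. The regions of the pooled list, strong and weak, lay at 21.8% of facing pairs, 13.9% of CACTGAGA copies and 2.60% of the bases.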

How the data were processed

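The 3 samples are biological replicates of 1 group. Per the deposited readme files, the authors called regions in every replicate separately against a common control and again in the pooled reads, and derived the IDR list from both; replicate and pooled lists hold background as well as peaks. The signal of a region is the authors' deposited value relative to that control, on a scale not given. The deposited q-values, as −log10, were not used, because 75.8% of IDR peaks share the upper value of 3.84. Not given in the sources used here: aligner, peak caller, versions, IDR threshold and read depth. The IDR list equals the 4599 strongest of 16640 pooled regions. Coordinates are dm6; sequence came from RefSeq and genes from Ensembl release 115, leaving out pseudogenes and transposons. Lists on dm3 were set aside.

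Overlap meant at least 1 shared bp. Where a member overlapped several regions of a replicate, the strongest counted. The only tests were two-sided exact sign-flip tests over the replicates; peaks are not replicates. Named are the 20 strongest members, genes with 4 or more (11 with 5, of which 1 is not reported here), up to 4 per list unless a list is given whole, those beside the limits and, after their values were seen, members with printed sequences or words. Members, motifs and gene lists were chosen with earlier results of these data known. Of 356 list names, 3 were not matched, and 1 further list was left out. The measures were tested on simulated peaks. Alternatives covered starts, limits, overlap, windows, replicates and thresholds. Versions were matplotlib 3.10.9, scipy 1.17.1, pandas 2.3.3 and numpy 2.4.6 under Python 3.11.15.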

Additional observations from a re-analysis of the deposited data

How the results depend on the processing

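Among 56 alternative values of the results, 31 stayed within the spread or interval of the value reported or, for differences, kept its direction. For the number of members the limit was a looser one, set as a ratio to the value reported. The comparisons with promoter peaks turned round when distal intergenic peaks took their place (+5.81 percentile points and +1.32 percentage points held). Without one replicate the rank difference was -13.5 to -10.7, the held difference -3.83 to -2.25, and the share held by the remaining pair 74.4 to 80.8%, higher because fewer lists must agree. That share was 99.7% over whole replicate lists and 31.8% over lists cut to 2299 regions. Among the stronger 2299 IDR peaks there were 319 members, 13.2 per Mb, and 28.3% of host genes had a promoter peak, against 13.1% of other genes. With 1 start per gene the density was 37.3 per Mb, and in the strongest regions of replicate 3, an alternative chosen after seeing the data, 29.2. The GC difference was -8.75 points in windows of 50 bp, -7.88 against flanks 2000 bp away and -0.682 in windows of 250 bp. Windows of 250 bp reach past the dip into the GC-richer sequence beside it. With 50 bp or 250 bp windows CACTGAGA was at 1.37% or 9.73%, TATAAA at 25.8% or 55.2% and TNCACTG (chosen after seeing the data) at 9.04% or 48.5% of members. Promoter windows of 250 bp and 1000 bp gave 21.8% and 42.9% of host genes. The first-intron share was 40.7% with the longest transcript. Among the stronger 365 members, 100% of CACTGAGA copies at 25 to 100 bp faced inward, an alternative chosen after seeing the data, as were merging overlaps (713 intervals), members that share no replicate region (68.4% held) and pair spacing. No paired analysis was possible because the samples form 1 group. Read depth is unknown, so no interval reflects it.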
